A study of Mus musculus with 4 samples.

Results

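Imprinted genes were followed through single-cell libraries of the mouse Mesp1 lineage, the descendants of early mesoderm. The rule for membership was the gene symbol, from the known imprinted clusters of the mouse. The rule used no measured value, although its members were drawn up with earlier results of these data known. It held 36 genes, of which 35 matched a row among the 27998 genes counted, and Rian was not analysed here. Of the 35, 30 had a mean of at least 5 CPM (UMIs, the distinct captured molecules, per 1000000 UMIs of the summed cells) over the 4 libraries.

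All embryos carried Mesp1Cre;Rosa26-GFPflox/+ on the Swiss Webster strain, so that Cre made in Mesp1-expressing early mesoderm marked those cells and their descendants with GFP. Living (DAPI negative) GFP positive cells were sorted from pooled embryos at E8.0 and E8.25, where the upper part of the body was dissected, and at E9.5 and E10.5, where the pharyngeal apparatus and heart were taken. Each stage was 1 library made with the version 2 kit for transcript 3' ends from 10x Genomics. Stage, dissected region and library therefore cannot be told apart, no test was made between stages, and intervals given for them cover counting error only.

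After filtering, 7118, 2884, 3921 and 7525 cells were retained, from the earliest stage to the latest (the order in which values of the 4 libraries are given throughout), with a median of 21321, 35216, 17254 and 15205 UMIs per cell. Cells were placed in compartments by gates on marker genes, and cells that passed no gate are called ungated. Between 10.4% (E10.5) and 28.5% (E8.25) of the retained cells passed more than 1 gate and were kept out of the compartments. Libraries shared between 16 and 88 cell barcodes in pairs, at most 1.39% of the smaller library. Haemoglobin transcripts, the marker of blood, made up 46.0% of UMIs in erythroid-like cells at E10.5 and between 0.489% and 0.579% in every other group of that library. The ungated cells, the reference for the comparisons of compartments, held 0.359% at E8.0 against 0.0120% to 0.0317% in the other groups without the erythroid-like cells, and 0.0113% at E9.5 against 0.000564% to 0.00319%. The part of free RNA in low levels, and of blood cells among the ungated cells, was not tested.

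An imprinted gene is transcribed mainly from the copy inherited from the mother or mainly from that inherited from the father. The choice is set by DNA methylation laid down in egg or sperm at an imprinting control region, which governs a whole cluster of neighbouring genes, often through a long noncoding RNA. Many of these genes act on growth of the embryo and placenta: paternally expressed Igf2 is a growth factor, whereas maternally expressed Igf2r removes it and Cdkn1c blocks the cell cycle. UMI counts do not separate the parental copies, so the levels below are sums of both.

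Several of the sequences that lie at these genes are short enough to show. The first is the whole stretch between the annotated ends of the divergent neighbours Peg3 and Usp29, which run in opposite directions and are both paternally expressed, at chr7:6730463-6730558 on the plus strand. The next are the 150 bases directly upstream of the annotated starts of Plagl1 (chr10:13090682-13090831), Nnat (chr2:157559928-157560077, within the span of Blcap) and Meg3 (chr12:109540846-109540995), all on the plus strand and chosen because the levels of these genes differed between libraries or compartments. Capitals mark the CpG dinucleotides, the sites of DNA methylation. All were taken from RefSeq on GRCm38.p6.
Peg3-Usp29 interval: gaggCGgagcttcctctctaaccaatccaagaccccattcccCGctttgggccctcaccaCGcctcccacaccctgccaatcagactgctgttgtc
Plagl1 upstream: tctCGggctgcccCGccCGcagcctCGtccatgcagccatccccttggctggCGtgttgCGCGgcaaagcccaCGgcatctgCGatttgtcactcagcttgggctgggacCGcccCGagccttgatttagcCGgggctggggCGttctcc
Nnat upstream: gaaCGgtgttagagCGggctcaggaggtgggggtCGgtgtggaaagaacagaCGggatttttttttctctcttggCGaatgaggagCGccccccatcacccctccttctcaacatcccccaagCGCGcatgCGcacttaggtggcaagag
Meg3 upstream: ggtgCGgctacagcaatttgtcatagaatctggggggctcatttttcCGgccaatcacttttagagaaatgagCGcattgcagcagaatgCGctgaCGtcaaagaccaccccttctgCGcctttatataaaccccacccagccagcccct
The interval between Peg3 and Usp29 held 3 CpG in 96 bases, and the upstream stretches of Plagl1, Nnat and Meg3 held 13, 9 and 6 in 150 bases. Promoter windows of 300 bases (250 before and 50 after a start) were available for 27 of the genes, 41 windows in all. They held a median of 13 CpG, from 1 to 45, against a median of 7 over all 32851 windows. The hexamer TGCCGC, the letters that the imprint-protecting zinc finger protein ZFP57 reads when methylated, was present on either strand in 10 of the 41 windows (24.4%, with overlapping windows of 1 gene counted apart) and in 11.6% of all windows. Such a match is a description of the letters and no evidence of binding.

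H19, the maternally expressed noncoding RNA beside Igf2, is also the host of a microRNA that was not measured by these libraries. Its mature forms are printed as in RefSeq (chr7:142577112-142577133 and chr7:142577078-142577099, minus strand, GRCm38.p6), with the seed, bases 2 to 8, in capitals. The seeds of the arms differ.
mmu-miR-675-5p: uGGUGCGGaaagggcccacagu
mmu-miR-675-3p: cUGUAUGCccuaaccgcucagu
Counts of H19 below are those of the host transcript.

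Together the genes made up 0.716%, 0.539%, 0.745% and 0.654% of all UMIs in the 4 libraries. Paternally expressed genes accounted for 0.275%, 0.285%, 0.341% and 0.295% of UMIs, and maternally expressed genes for 0.319%, 0.153%, 0.243% and 0.197%. Within the maternal sum, Phlda2 alone went from 1413 CPM at E8.0 to 4.70 at E10.5. Genes whose expressed copy depends on the tissue, among them Gnas, Grb10 and Ube3a, are in neither sum. Both the total and the maternal sum were lowest at E8.25. In such sums over whole libraries, fewer cells of a type and less RNA per cell cannot be told apart.

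From the first library to the last the median log2 ratio of the 30 genes was 0.03, against -0.13 over all 9140 genes at the same level. Of the 30, 4 were at least 2-fold higher at E10.5 with a counting interval that left out 0 (6.75% of all genes), and 3 were at least 2-fold lower (4.14%). The higher genes were Plagl1, Zim1, Asb4 and Nnat, and the lower ones were Phlda2, Snrpn and Peg10. Zim1, at 2.23 and 2.58 CPM in the early libraries, passed the filter of 5 CPM only through the late ones, where it was high. From E8.0 to E8.25, 0 genes were 2-fold higher (1.79% of all genes) and 3 were lower (2.52%). From E8.25 to E9.5, where the dissected region also changed, 6 were higher (7.25%) and 2 lower (2.69%), and from E9.5 to E10.5, 0 were higher (2.49%) and 4 lower (2.69%). With 1 library per stage these are counts with no test.

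**Figure D1:**
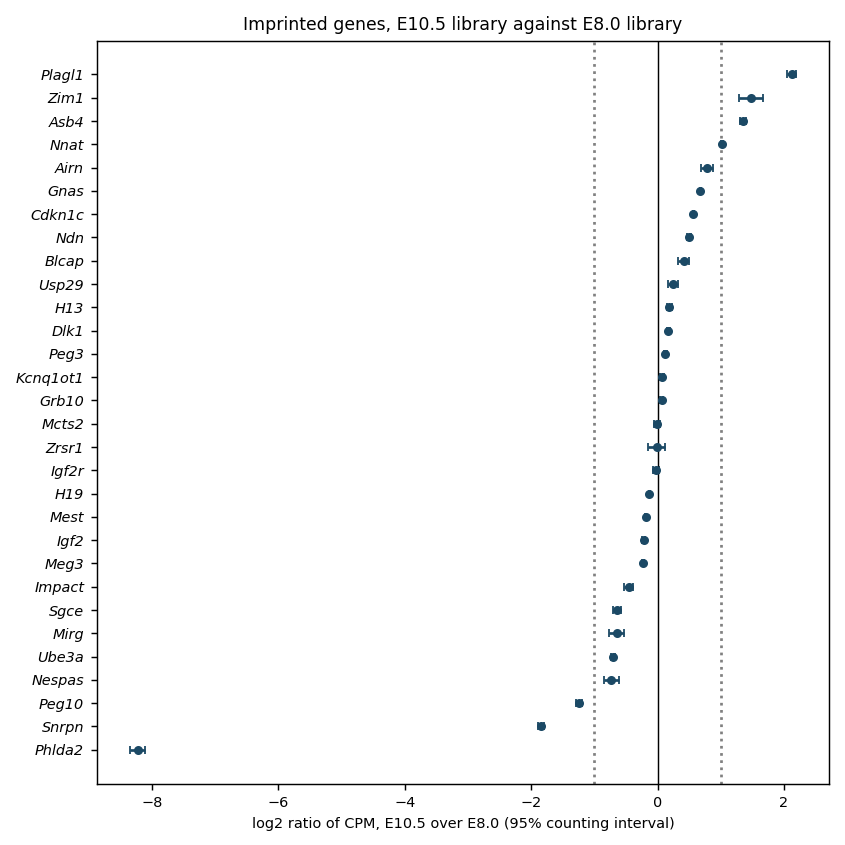
Log2 ratio of CPM in the E10.5 library over the E8.0 library for each of the 30 imprinted genes, with the 95% counting interval as a bar; dotted lines mark a 2-fold difference. Phlda2 lies far to the left at -8.23, and Plagl1 lies highest at 2.12.

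E9.5 was the library with the highest level for 15 of the 30 genes (39.1% of all genes), and E8.25 that with the lowest for 14 (25.9%). Erythroid-like cells made up 0.899%, 10.9%, 0.102% and 13.6% of the retained cells. In them 24 of 34 members were called lower than in ungated cells, against 33.7% of all genes. In 12 genes both late libraries (E9.5 and E10.5) lay above both early ones, against 26.8% of all genes, and in 5 genes both early libraries lay above both late ones, against 24.5%. Without erythroid-like cells the 4 counts were 13, 11, 15 and 2, against 25.6%, 27.5%, 35.8% and 21.8% of all genes. In all retained cells the 12 were Airn, Peg3, Usp29, Zim1, Asb4, Dlk1, Cdkn1c, Plagl1, Grb10, Nnat, Ndn and Gnas, of which Zim1 passed the level filter only through the late libraries. The 5 were Igf2, Phlda2, Mest, Snrpn and Mcts2. Nnat was the one gene whose level was higher at each successive stage, and Phlda2 the one whose level was lower at each.

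**Figure D2:**
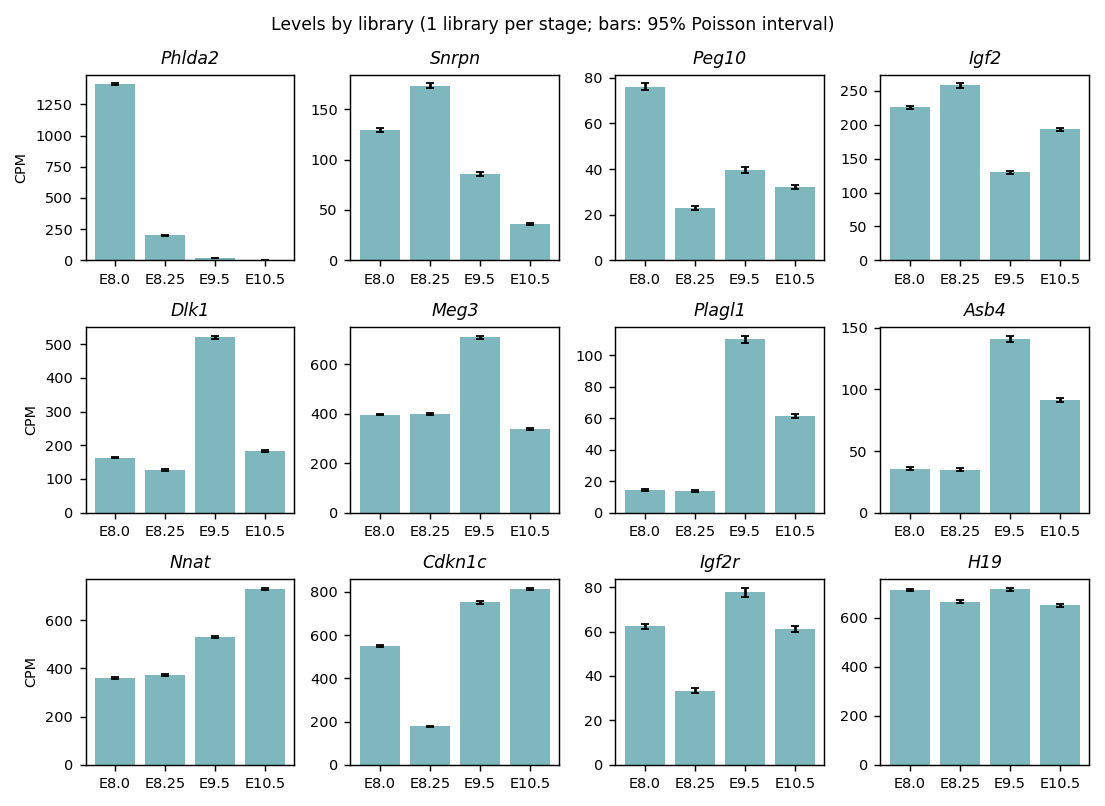
CPM of all retained cells for 12 imprinted genes in the 4 libraries, 1 library per stage, on linear axes from 0; error bars are 95% Poisson intervals. Phlda2 goes from 1413 at E8.0 to 4.70 at E10.5, Dlk1 and Meg3 peak at E9.5, and H19 stays between 650.2 and 716.2.

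Within the cluster governed by the noncoding RNA Kcnq1ot1, Phlda2, a maternally expressed gene that limits growth of the placenta, showed the widest range. Its level was 1413, 200.5, 18.6 and 4.70 CPM, a 300.3-fold range. A UMI of Phlda2 was found in 85.7% of cells at E8.0 (Clopper-Pearson interval 84.8 to 86.5%) and in 4.37% at E10.5 (3.92 to 4.86%). Among the cells with at least 8000 UMIs, each thinned to 8000 (which leaves out 501, 8, 249 and 803 shallower cells), the shares were 70.7%, 32.8%, 7.97% and 2.68% in the order of stages, so the order was the same at equal depth. The E10.5 level stood at a log2 ratio of -8.23 (-8.35 to -8.11) to the E8.0 level. Allantois-like cells, 550 cells found at E8.0 alone and marked by Tbx4, Pitx1 and Hoxa genes, held 4595 CPM of Phlda2. The lower level was also seen within each of the 8 groups of cells measured at both ends, from -2.89 in cardiomyocyte-like cells to -8.51 in posterior second heart field-like cells.

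Cdkn1c, the maternally expressed cell cycle inhibitor of the same cluster, stood at 549.5, 179.0, 750.8 and 813.7 CPM. It was thus lowest at E8.25 and highest at E10.5. Kcnq1ot1 itself, made from the paternal copy and antisense to the gene Kcnq1, varied little, with 129.9, 97.4, 115.9 and 136.6. Slc22a18 and Ascl2 of this cluster stayed between 0.383 and 3.42 CPM and were both higher in the early libraries.

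Snrpn, a paternally expressed splicing protein gene of the cluster that corresponds to the Prader-Willi and Angelman region, stood at 129.5, 173.0, 85.7 and 36.1 CPM. The last library stood at a log2 ratio to the first of -1.84 (-1.89 to -1.80). It was lower at E10.5 in 8 of 8 groups of cells, from -1.13 in endothelial-like to -1.96 in erythroid-like cells. In erythroid-like cells haemoglobin made up 6.07% of UMIs at E8.0 and 46.0% at E10.5. There 51.0% of all genes were at least 2-fold lower at E10.5. Ndn, a paternally expressed gene of the same cluster that restrains cell proliferation, went the other way, with 103.9, 120.2, 193.4 and 146.1 CPM, and the ubiquitin ligase gene Ube3a stood at 181.2, 128.0, 179.8 and 111.2. Neighbours of 1 cluster therefore differed in order over the stages. Magel2 stayed between 1.44 and 2.74.

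Plagl1, a paternally expressed zinc finger transcription factor whose upstream stretch is shown above, stood at 14.1 and 13.8 CPM in the early libraries and at 109.9 and 61.3 CPM in the late ones. The log2 ratio of last to first library was 2.12 (2.05 to 2.19). It was higher at E10.5 in all 7 groups of cells that passed the level filter, by 1.69 in cardiomyocyte-like to 3.45 in paraxial mesoderm-like cells on the log2 scale. The share of cells with a UMI was 18.4%, 25.8%, 45.8% and 39.4%, and thinned as above 9.20%, 9.36%, 33.9% and 27.9%.

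Asb4, a maternally expressed gene of the Peg10 cluster that encodes a subunit of a ubiquitin ligase, stood at 35.7 and 34.9 CPM early and at 141.0 and 91.3 late. It was higher at E10.5 in 7 of 7 groups, by 0.46 to 5.14 on the log2 scale. Peg10, a paternally expressed gene derived from a retrotransposon and needed in the placenta, stood at 76.2, 23.0, 39.6 and 32.1, and its neighbour Sgce, which encodes a sarcoglycan, at 43.8, 25.3, 38.7 and 28.1. The lower level of Peg10 did not hold in every group. Within groups its log2 ratio ran from -1.43 in erythroid-like to 1.81 in paraxial mesoderm-like cells, it was higher beyond counting error in 3 and lower in 4, and allantois-like cells held 201.6 CPM at E8.0. The erythroid-like value stands beside the 51.0% of all genes that were at least 2-fold lower in those cells.

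Dlk1, a paternally expressed membrane protein of the Notch ligand family, stood at 163.3, 126.9, 520.0 and 183.2 CPM, and Meg3, the maternally expressed noncoding RNA of the same cluster, at 395.6, 399.3, 709.2 and 337.4. Both were highest at E9.5, with the other 3 libraries well below. Mirg, a further maternal noncoding RNA of the cluster and host of microRNAs, stood at 10.6, 7.83, 10.2 and 6.76, and Rtl1 stayed between 0.141 and 0.604. The direction of Dlk1 and Meg3 between E8.0 and E10.5 depended on the cells: Dlk1 was lower by 2.25 on the log2 scale in posterior second heart field-like cells and higher by 4.15 in paraxial mesoderm-like cells.

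In the cluster of Igf2 and H19, Igf2 stood at 225.5, 257.8, 129.7 and 193.4 CPM and was lowest at E9.5. H19 stood at 712.4, 665.8, 716.2 and 650.2, a 1.10-fold range. The receptor gene Igf2r stood at 62.4, 33.3, 77.7 and 61.2, and Airn, the paternal noncoding RNA antisense to it, at 11.4, 9.59, 18.9 and 19.6. How strand entered the counting is not given in the sources used here, so reads of Airn and Igf2r may be mixed, as may those of Kcnq1ot1 and Kcnq1 and of Nespas and Gnas.

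In the Peg3 cluster, Peg3, a paternally expressed zinc finger gene, stood at 346.6, 309.6, 588.7 and 377.3 CPM, and Usp29 at 18.6, 20.4, 36.3 and 22.0. The maternally expressed zinc finger gene Zim1 stood at 2.23, 2.58, 9.87 and 6.205. The 3 neighbours were all highest at E9.5, although Zim1 is made from the other parental copy than Peg3 and Usp29.

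Nnat, a paternally expressed membrane protein gene that lies in an intron of Blcap, stood at 360.1, 373.4, 530.3 and 730.7 CPM, and Blcap at 14.8, 21.6, 25.4 and 19.7. Gnas, which encodes the stimulatory G protein subunit, stood at 736.6, 643.7, 1082 and 1177, and its antisense partner Nespas at 12.02, 7.33, 13.7 and 7.24. Grb10, an adaptor that restrains insulin signalling, stood at 226.5, 160.6, 248.97 and 236.8.

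Mest, a paternally expressed enzyme gene of mesoderm, was among the most abundant of the set, with 1027, 1209, 901.7 and 899.9 CPM. Impact, which restrains the response to amino acid shortage, stood at 34.5, 27.6, 35.1 and 25.04. Zrsr1, a splicing factor gene with a parent copy on the X chromosome, stood at 6.99, 6.83, 8.98 and 6.91, and Trappc9 stayed between 3.17 and 5.76. Mcts2, an intronless copy of a translation factor gene that lies within H13, hardly varied, with 42.9, 45.1, 42.8 and 42.6, and H13 stood at 62.4, 58.6, 59.3 and 70.9. Reads of Zrsr1 and Mcts2 could be shared with their parent genes and with the genes that contain them. For Igf2r, Zrsr1 and Mcts2 the counting interval of the ratio between E10.5 and E8.0 held 0.

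Levels were also compared between stages within each compartment, although a gate does not fix the makeup of the cells inside it. In endothelial-like cells 6 of 30 genes were at least 2-fold higher in the E10.5 than in the E8.0 library (9.22% of all genes) and 3 lower (3.77%). In cardiomyocyte-like cells 5 of 31 were higher (12.9%) and 3 lower (6.29%). The level filter here was a mean of at least 5 CPM over the E8.0 and E10.5 libraries. A gene low at E8.0 could thus pass through E10.5 alone, as Zim1 did in cardiomyocyte-like cells (3.39 and 20.4 CPM). In branchiomeric muscle-like cells 6 of 31 were higher (9.93%) and 4 lower (5.12%), and in posterior second heart field-like cells 6 of 29 were higher (10.2%) and 3 lower (4.43%). Paraxial mesoderm-like cells had 15 of 29 higher (9.42%) and 2 lower (4.38%), with a median log2 ratio of 1.05. Cranial mesenchyme-like cells had 6 of 29 higher (9.34%) and 2 lower (3.72%), and ungated cells had 5 of 29 higher (11.5%) and 3 lower (3.55%). Erythroid-like cells had 1 of 21 higher (3.01%) and 7 lower (51.0%). The 113 paraxial mesoderm-like cells at E10.5 and the 612 at E8.0 came from different body regions.

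Compartments were then compared with the ungated cells of the same library, with the library as a block, by edgeR's quasi-likelihood test on summed counts, with Benjamini-Hochberg adjustment over all genes tested. Here the libraries serve as the replicates, so that a call means a difference averaged over stages, whose size can differ between them. Mesothelial-like and allantois-like cells reached 20 cells in fewer than 3 libraries and were not tested. Where members called under another setting are counted without the share of all genes, the count is no result about the members. Values are log2 fold changes over ungated cells with their standard error (SE).

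**Figure D3:**
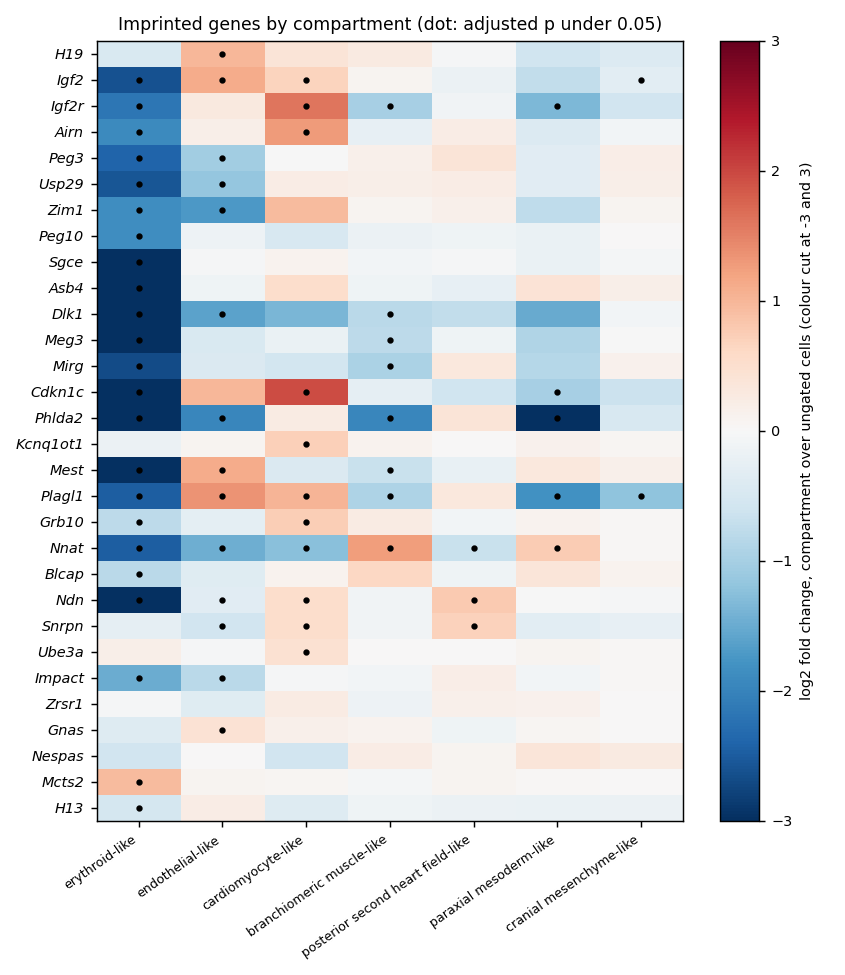
Log2 fold change of each of the 30 imprinted genes in 7 marker-gated compartments over the ungated cells of the same libraries (colour, cut at -3 and 3); a dot marks an adjusted p under 0.05. Erythroid-like cells are low in most genes, where 33.7% of all genes were called lower. Cardiomyocyte-like cells carry 10 dots in the higher direction (13.8% of all genes) and 1 in the lower (17.2%).

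Endothelial-like cells, gated on Pecam1, Cdh5, Kdr and other vessel genes, had 6 members higher (18.3% of all genes were called higher) and 10 lower (16.3%), of 34 tested. The higher ones included Igf2, its neighbour H19, Mest and Plagl1, and the lower ones the Peg3 cluster, Dlk1, Nnat and Phlda2. Mest stood at 1954, 2652, 1901 and 2042 CPM in endothelial-like cells and at 1039, 1467, 885.4 and 932.7 in ungated cells, so that the groups did not overlap. Its log2 fold change was 1.11 (SE 0.06, adjusted p = 6.58e-05). H19 stood at 993.2, 1103, 1607 and 1802 against 724.7, 720.3, 835.9 and 631.4 (0.99, SE 0.16, adjusted p = 0.00432).

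Igf2 stood at 346.5, 552.3, 372.0 and 564.1 CPM in endothelial-like cells against 252.8, 316.6, 139.3 and 221.7 in ungated cells (1.12, SE 0.16, adjusted p = 0.00256). Plagl1 (1.35), Trappc9 (1.29) and Gnas (0.43) were also higher in 4 of 4 libraries. Peg3 stood at 178.7, 210.3, 206.3 and 164.1 against 396.9, 334.9, 587.9 and 390.7, with no overlap (-1.03, SE 0.12, adjusted p = 0.00115). Its neighbours Usp29 (-1.16) and Zim1 (-1.71) were lower too, as were Nnat (-1.47), Dlk1 (-1.61), Magel2 (-1.72) and Phlda2 (-1.96), all in 4 of 4 libraries. Impact was lower by 0.80. With either E8.25 or E9.5 left out the call of Dlk1 was lost, and with E8.0 or E8.25 left out that of Magel2. Without the library block 11 members were called, and Plagl1, Gnas and Phlda2 were not among them.

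Cardiomyocyte-like cells, gated on sarcomere genes, had 10 members higher (13.8% of all genes) and 1 lower (17.2%). Cdkn1c led the higher genes, with 2421, 1646, 1645 and 1865 CPM against 340.8, 225.7, 1061 and 785.7 in ungated cells, and the groups did not overlap. Its log2 fold change was 1.97 (SE 0.35, adjusted p = 0.00537). Igf2r stood at 162.8, 151.3, 212.8 and 277.8 against 68.2, 40.6, 95.8 and 75.1, again with no overlap (1.61, SE 0.15, adjusted p = 0.000295), and Airn, antisense to it, was higher by 1.29.

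Plagl1 (1.02), Grb10 (0.74), Kcnq1ot1 (0.72), Igf2 (0.67) and Ndn (0.53) were among the other genes higher in cardiomyocyte-like cells. Without the library block 7 members were called, and Plagl1 and Igf2 were not among them. Nnat was the member that was lower, with 210.7, 191.0, 138.1 and 230.1 CPM against 341.0, 425.3, 380.5 and 911.4 (-1.25, SE 0.17, adjusted p = 0.00188). The E8.25 library held 27 cardiomyocyte-like cells. Igf2r, Kcnq1ot1, Grb10 and Ube3a had their highest level of all gated compartments in cardiomyocyte-like cells in each of the 4 libraries, and Gnas had it in endothelial-like cells. For Ube3a at E8.0, E9.5 and E10.5, for Grb10 at E9.5 and for Gnas at E8.0 and E9.5 the counting interval overlapped that of the next compartment.

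**Figure D4:**
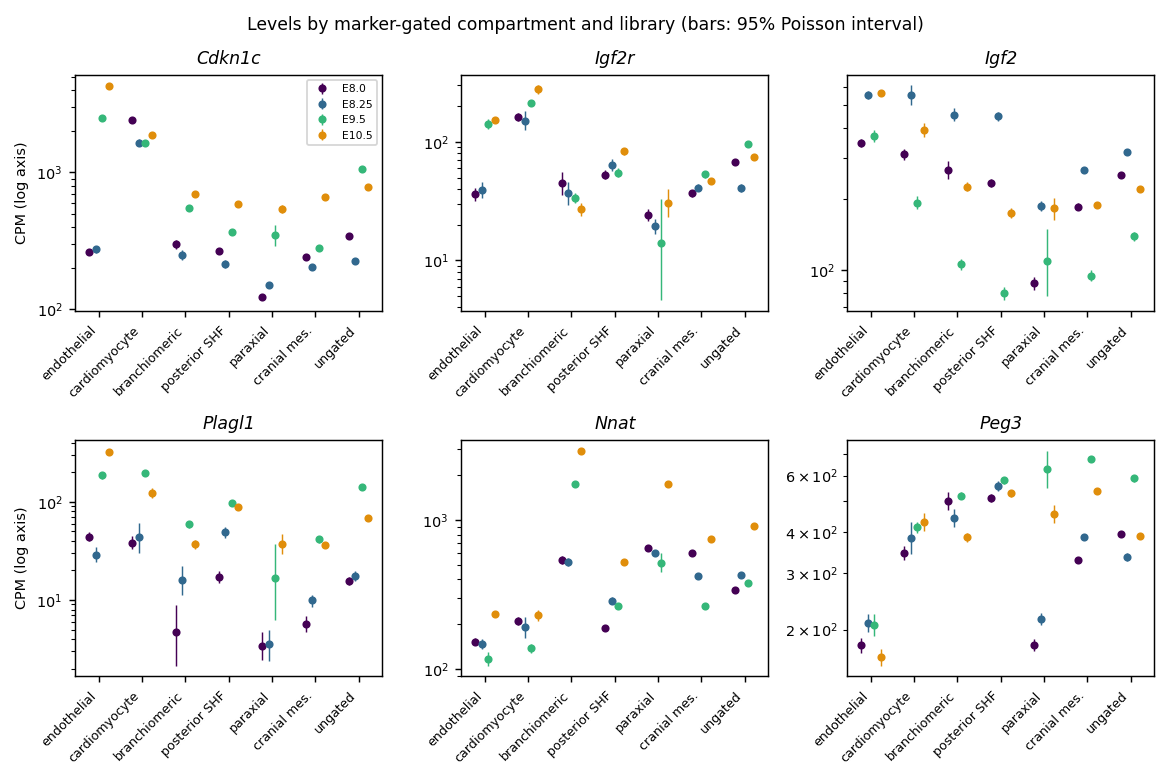
CPM on a log axis for 6 imprinted genes in 6 marker-gated compartments and ungated cells, 1 colour per library, with 95% Poisson intervals. Igf2r is highest in cardiomyocyte-like cells in all 4 libraries, Nnat reaches 2894 in branchiomeric muscle-like cells at E10.5, and Peg3 is lower in endothelial-like than in ungated cells of each library.

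Branchiomeric muscle-like cells, gated on genes of the head muscle progenitors such as Tcf21, Lhx2 and Myf5, had 1 member higher (2.36% of all genes) and 7 lower (6.85%). Nnat was the higher one, with 542.8, 523.3, 1761 and 2894 CPM against 341.0, 425.3, 380.5 and 911.4 (1.26, SE 0.29, adjusted p = 0.0338), and its call was lost without the E8.0, the E9.5 or the E10.5 library. Phlda2 (-1.95), Igf2r (-0.99), Mirg (-0.95), Plagl1 (-0.94), Dlk1 (-0.81), Meg3 (-0.78) and Mest (-0.67) were lower in 4 of 4 libraries. With 1 library left out, the calls of Igf2r and Plagl1 were lost without E9.5 or E10.5, that of Dlk1 without E8.25 or E9.5, that of Mest without E8.0 or E8.25, that of Meg3 without E10.5 and that of Mirg without E8.0, E9.5 or E10.5, while that of Phlda2 was kept. Mirg was not called by DESeq2 or without doublet removal either. The number of members called was 5, 7, 4 and 3 with E8.0, E8.25, E9.5 and then E10.5 left out. Without the library block 0 members were called here, and 0 of all genes.

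Posterior second heart field-like cells, gated on Foxf1, Wnt2, Tbx5, Osr1 and Hoxb1, had 3 members higher (1.20% of all genes) and 1 lower (3.54%). The 3 higher genes were paternally expressed neighbours, Magel2 (1.13), Ndn (0.78) and Snrpn (0.68). Ndn stood at 141.5, 315.3, 265.9 and 301.2 CPM against 104.6, 153.0, 167.6 and 158.7 (SE 0.10, adjusted p = 0.0106), whereas Magel2 did not pass 6.21 in any library. The call of Magel2 was lost without any 1 library and that of Snrpn without E8.25, E9.5 or E10.5, while that of Ndn was kept with any 1 library left out. Without the library block 0 members were called in these cells. Nnat was lower by 0.68 (SE 0.07, adjusted p = 0.00523), in 4 of 4 libraries.

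Paraxial mesoderm-like cells, gated on somite genes such as Meox1 and Tcf15, had 1 member higher (1.12% of all genes) and 4 lower (4.09%). Nnat was higher by 0.76 (SE 0.10, adjusted p = 0.00251), with 647.0, 603.0, 518.9 and 1746 CPM. Phlda2 stood at 99.7, 31.3, 0 and 1.04 against 984.1, 227.3, 28.9 and 7.47 (-3.07, SE 0.16, adjusted p = 2.36e-05), where 0 UMIs among the 22 cells at E9.5 allow up to 8.46 CPM. Plagl1 (-1.81), Igf2r (-1.36) and Cdkn1c (-0.98) were lower as well. Leaving out E10.5 raised the number of members called from 5 to 14, and leaving out E9.5 lowered it to 3, with the calls of Plagl1 and Cdkn1c lost. The share of all genes called in these settings is not given here, so a general change in calls cannot be told apart. The call of Cdkn1c was also lost with the marker threshold doubled and with gates on thinned counts, and without the library block 0 members were called.

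Cranial mesenchyme-like cells, gated on genes such as Prrx1, Prrx2, Twist1 and Alx1, had 0 members higher (1.53% of all genes) and 2 lower (4.13%). In edgeR 1 member, Nespas, was higher at an unadjusted p under 0.05, and DESeq2 also called 0 higher. Plagl1 stood at 5.73, 9.89, 41.5 and 36.1 CPM against 15.6, 17.5, 142.7 and 68.5, lower in each library (-1.21, SE 0.16, adjusted p = 0.0144). Igf2 was lower by 0.32, a call that was lost without any 1 library. The call of Plagl1 was kept with any 1 library left out, and without the library block 0 members were called. Plagl1 was thus higher in endothelial-like and cardiomyocyte-like cells and lower in branchiomeric muscle-like, paraxial mesoderm-like and cranial mesenchyme-like cells than in the ungated cells of the same libraries.

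Erythroid-like cells, gated on haemoglobin genes with at least 2 further red cell genes such as Alas2, Klf1, Gata1, Gfi1b and Hemgn, were tested in 3 libraries, because the E9.5 library held 4 of them. Of 34 members, 24 were lower (33.7% of all genes) and 1 was higher (18.6%). Meg3 stood at 11.6, 15.6 and 6.94 CPM against 497.5, 586.4 and 403.0 in ungated cells at E8.0, E8.25 and E10.5 (-4.66, SE 0.19, adjusted p = 0.000266). A UMI of Meg3 was found in 15% of erythroid-like and 80.9% of ungated cells at E10.5, and in 4.96% of 978 and 73.8% of 1377 cells deep enough to be thinned to 8000 UMIs. Cdkn1c (-3.41), Phlda2 (-3.30), Dlk1 (-3.27), Sgce (-3.21), Asb4 (-3.20), Mest (-3.07) and Ndn (-3.02) followed.

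In the erythroid-like cells H19 and its neighbour Igf2 are given side by side, and their difference was not tested. H19 stood at 165.4, 359.7 and 390.0 CPM, that is 22.8%, 49.9% and 61.8% of the level in ungated cells, and was not called (-0.46, SE 0.44, adjusted p = 0.413). Haemoglobin made up 6.07%, 11.4% and 46.0% of UMIs in these cells, and the total behind CPM includes it. Igf2 stood at 29.7, 30.6 and 15.7 and was lower by 2.61 (SE 0.17, adjusted p = 0.000278). Mcts2 was the member called higher (0.96, SE 0.17), with 73.4, 64.1 and 24.0 against 45.6, 39.4 and 45.5 CPM. Its CPM was thus lower than in ungated cells at E10.5, where haemoglobin made up 46.0% of the total. Fitted values are scaled by TMM, a normalization on the bulk of genes, and lie above the plain ratios of CPM. The reason for this gap was not tested. With haemoglobin genes left out of the totals, a setting added once the data had been looked at, 24 members were called, with 23 lower.

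The difference of a compartment from ungated cells changed with stage for some members. It was tested as the interaction between compartment and the late libraries, added once the data had been looked at. In paraxial mesoderm-like cells 11 of 34 members were called (2.74% of all genes) and 10 of them were higher late. In branchiomeric muscle-like cells 9 were called (3.07%), in endothelial-like cells 7 (6.92%), in cardiomyocyte-like cells 3 (8.12%), in cranial mesenchyme-like cells 3 (0.895%) and in posterior second heart field-like cells 0 (0.818%), where edgeR's test gave 7 members an unadjusted p under 0.05.

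Dlk1 in paraxial mesoderm-like cells stood at 12.9, 24.96, 724.8 and 229.2 CPM, against 225.2, 239.6, 528.6 and 168.4 in ungated cells. It was below ungated cells in both early libraries and above them in both late ones, and the interaction was 4.12 (SE 0.20, adjusted p = 1.39e-08). In cranial mesenchyme-like cells it stood at 62.4, 108.7, 1049 and 427.0, with an interaction of 2.71 (SE 0.23, adjusted p = 0.0097). Meg3 and Mest went the same way in both compartments, at 2.42 and 1.59 in paraxial mesoderm-like and 1.39 and 0.89 in cranial mesenchyme-like cells. Cdkn1c rose against ungated cells by 1.92 in endothelial-like cells, from 261.3 CPM at E8.0 to 4276 at E10.5, and fell by 1.75 in cardiomyocyte-like cells, where its own level was high throughout.

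**Figure D5:**
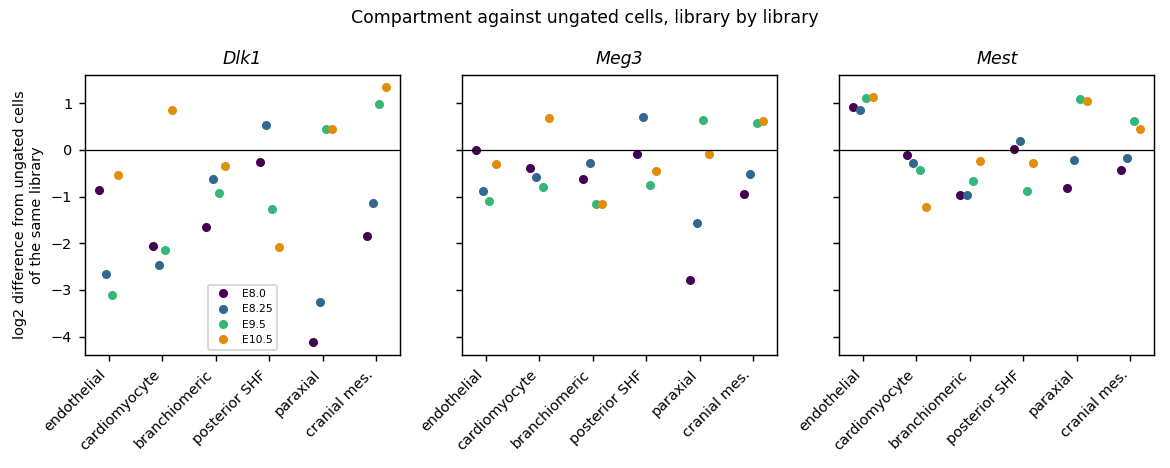
Log2 difference of Dlk1, Meg3 and Mest from ungated cells of the same library in 6 compartments, with 1 point per library (4 colours). In cranial mesenchyme-like cells the points of E8.0 and E8.25 lie below 0 and those of E9.5 and E10.5 above it for each of the 3 genes.

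Neighbours in a cluster were compared over compartments. Over 31 sums (compartment or ungated cells by library, erythroid-like cells left out, on log2 of CPM plus 1, centred within libraries), Pearson's r was 0.94 and Spearman's rho 0.94 for H19 and Igf2. It was 0.90 for Peg3 and Usp29, 0.87 for Dlk1 and Meg3, 0.87 for Nnat and Blcap, 0.86 for Peg10 and Sgce and 0.82 for Igf2r and Airn. H19 and Meg3 are made from the other parental copy than Igf2 and Dlk1. In the Kcnq1ot1 cluster r was 0.37 for Cdkn1c and Phlda2 and 0.31 for Cdkn1c and Kcnq1ot1, and for Gnas and Nespas it was 0.18. It was below 0 for Phlda2 and Kcnq1ot1 (-0.034) and for Mcts2 and H13 (-0.16). The median r was 0.75 over the 20 pairs of one cluster and 0.14 over all 435 pairs of the 30 genes. The sums share libraries, totals and, for antisense or overlapping pairs, possibly reads, so r is given as a description.

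Lists of related genes were read beside the set. Of 47 other imprinted genes, 44 had a row and 17 reached 5 CPM. Of these, 2 were at least 2-fold higher in the last than in the first library and 2 were lower (6.75% and 4.14% of all genes). Tspan32, a tetraspanin gene, stood at 3.71, 17.6, 6.30 and 20.4 CPM and Dcn, a matrix proteoglycan gene, at 3.81, 7.93, 7.21 and 19.4. Both were highest at E10.5 and next at E8.25, the libraries with the largest shares of erythroid-like cells (13.6% and 10.9%). The part of those cells in these levels was not tested. Smoc1, a secreted matrix protein gene, stood at 25.5, 27.1, 6.57 and 5.24 and Slc38a4, an amino acid transporter gene, at 87.3, 46.7, 62.8 and 41.2. Against ungated cells, 7 of 34 were higher (18.3% of all genes) and 6 lower (16.3%) in endothelial-like cells, and 4 of 33 were higher (18.6%) and 16 lower (33.7%) in erythroid-like cells.

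A list of 21 genes covered imprint maintenance, silencing, and enzymes that set or oxidise DNA methylation. Of these, 18 reached the level, and 1 was 2-fold higher (6.75% of all genes) and 1 lower (4.14%) at E10.5. Dnmt3b, a DNA methyltransferase that sets new methylation, stood at 59.2, 45.5, 24.2 and 14.2 CPM, a log2 ratio of -2.06 between E10.5 and E8.0. Its relative Dnmt3a stood at 37.5, 27.6, 65.8 and 62.4. Tet2 stood at 3.74, 3.95, 7.89 and 8.03 and Tet1 at 24.6, 12.5, 16.2 and 14.9, both enzymes that oxidise methylated DNA. Tet2 passed the level filter only through the late libraries. In cardiomyocyte-like cells 10 of 19 genes of this list were lower (17.2% of all genes) and the other 9 were not called.

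Of 18 genes of the insulin-like growth factor pathway other than Igf2 and Igf2r, 15 reached the level, and 4 were 2-fold higher at E10.5 (6.75% of all genes) and 0 lower (4.14%). Igf1, the other growth factor of the family, stood at 4.88, 8.38, 18.8 and 28.8 CPM, higher at each stage, while Igf2 was lower in both late libraries over all retained cells. Without erythroid-like cells the log2 ratio of Igf2 between E10.5 and E8.0 was 0.0901, so its order depended on those cells. The binding protein genes Igfbp7 (1.40, 1.58, 12.5 and 14.8), Igfbp3 (7.16, 12.95, 11.2 and 28.1) and Igfbp5 (47.6, 35.2, 205.2 and 181.8) were likewise higher in the last library than in the first. Igfbp7 passed the level filter only through the late libraries. In erythroid-like cells 13 of 16 of these genes were lower (33.7% of all genes) and 1 higher (18.6%).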

How the data were processed

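Cells of 4 libraries, 1 per stage and of 1 genotype, were analysed. The authors aligned reads to mm10 with Cell Ranger 3.1.0 and deposited raw UMI counts per gene and cell, with no normalization; how strand entered the counting is not given in the sources used here. Membership follows gene symbols, but the members and lists were drawn up with earlier results of these data known, so their choice was not independent of the data.

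Cells with at least 1000 genes and at most 10% mitochondrial UMIs were kept, and the cells with the highest Scrublet scores (scanpy 1.11.5) were removed at 0.8% per 1000 cells, because Scrublet's own threshold marked only 0.0247% to 1.58% of the cells. Library totals were 168407965, 110213770, 74920880 and 142850521 UMIs as deposited. Levels are UMIs per 1000000 UMIs of summed retained cells (CPM) with exact Poisson 95% intervals, ratios have exact conditional binomial intervals, and shares have Clopper-Pearson intervals, all for counting error only. Compartments are cells that passed 1 of 9 gates on marker genes (at least 3 of the markers detected for most gates, and a minimum summed level); not every gate marker is reported here. Sums of compartments with at least 20 cells in at least 3 libraries were tested against ungated cells with edgeR 4.0.16 (glmQLFit, TMM, filterByExpr, library as block), called at a Benjamini-Hochberg adjusted p under 0.05 over all genes tested, gate markers left out. Libraries come from pooled embryos of different stages. With the block, p-values measure how far the difference between a compartment and ungated cells varied from library to library. For the interaction this spread is that within the early and within the late libraries. The scripts were tested on simulated data. Named with values are all members with a mean of at least 5 CPM (the others by their range), in a compartment up to 8 called members in each direction, whatever their mean, and from each list the 4 genes with the largest ratio. H19 and Igf2 in erythroid-like cells, the genes named for interactions and the compartment ranks were chosen after their values were seen. Alternatives were DESeq2 (version 1.42.0), other scalings, filters and gates, and each library left out. Sequences came from RefSeq tables on GRCm38.p6.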

Additional observations from a re-analysis of the deposited data

Results flagged for a closer look

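For 33 pairs of a member and a compartment, the difference from the ungated cells of the same library differed between the late (E9.5, E10.5) and the early libraries, by edgeR's quasi-likelihood test of the interaction with Benjamini-Hochberg adjustment over all genes, a test added once the data had been looked at. Each value is the late minus the early log2 difference. Stage, dissected region and library change together here and cannot be told apart.

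In paraxial mesoderm-like cells the difference was 4.12 for Dlk1, 2.42 for Meg3, 2.27 for Mirg, 2.28 for Asb4, 1.91 for Peg10, 1.59 for Mest, 1.45 for Usp29, 1.27 for Ndn, 1.07 for Peg3, 0.85 for Igf2 and -0.58 for Kcnq1ot1. The E9.5 library held 22 of these cells. In cranial mesenchyme-like cells it was 2.71 for Dlk1, 1.39 for Meg3 and 0.89 for Mest.

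In endothelial-like cells it was 1.92 for Cdkn1c, 1.37 for Igf2r, 0.77 for Igf2, 0.71 for H19, 0.47 for Snrpn and -0.52 for Grb10. The value of 4.96 for Slc22a18 rests on 1, 0, 4 and 7 UMIs in the 4 libraries and depends on how a count of 0 is treated in the fit. In cardiomyocyte-like cells it was -1.75 for Cdkn1c, -1.42 for Asb4 and -0.67 for Nnat.

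In branchiomeric muscle-like cells it was 1.502 for Nnat, 1.01 for Ndn, 0.69 for Snrpn and 0.57 for Mest, and -1.05 for Igf2r, -0.77 for Asb4, -0.66 for Meg3, -0.41 for Peg3 and -0.33 for Gnas. Nnat was above ungated cells in all 4 libraries, by 0.67 and 0.30 early and by 2.21 and 1.67 late on the log2 scale.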

How the results depend on the processing

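The counts of members at least 2-fold higher (4) and lower (3) at E10.5 ran from 3 to 5 and from 2 to 3 over the other scalings and cell sets, and 6 were lower when every gene with 1 UMI in both libraries was admitted. Without erythroid-like cells 2 members had both early libraries above both late ones, in place of 5. Without erythroid-like cells the log2 ratio of the last to the first library became 0.00526 for H19, 0.0901 for Igf2, 0.0997 for Meg3 and 0.128 for Mest, and the median of all genes moved from -0.13 to 0.07. In ungated cells alone it became -0.0228 for Peg3, 0.14 for Sgce and -0.42 for Dlk1. Without haemoglobin, mitochondrial and ribosomal protein genes in the total it became 0.0435 for H19. Thinned to 4000 UMIs in place of 8000, the share of cells with a UMI at E10.5 minus E8.0 turned to 1.27 points for Peg3, 2.12 for Grb10 and 1.45 for Gnas.

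Of 71 calls in compartments, 34 were kept in every setting listed at the outset, 16 were lost only without the library block, and 21 were lost in another as well or instead; 0 changed direction. The later removal of haemoglobin genes, which is not in these counts, ended the call of H13 in erythroid-like cells. Without the block, where the differences between stages enter the spread, 7 members were called in cardiomyocyte-like cells and 0 in branchiomeric muscle-like, posterior second heart field-like, paraxial mesoderm-like and cranial mesenchyme-like cells. In cranial mesenchyme-like cells 5 were called by DESeq2, 5 with no filter on low counts, 4 with no doublet removal, 1 with the marker threshold doubled and 1 with gates on thinned counts. With each library left out in turn, the members called ran from 21 to 29 in erythroid-like, 15 to 17 in endothelial-like, 11 to 13 in cardiomyocyte-like, 3 to 7 in branchiomeric muscle-like, 2 to 3 in posterior second heart field-like, 3 to 14 in paraxial mesoderm-like and 1 to 3 in cranial mesenchyme-like cells. These counts are given without the share of all genes called in each setting, so they do not single out the members. The cause of these changes was not tested. Depth limits Rtl1, Slc22a18, Ascl2, Magel2 and Trappc9, all under 5 CPM on average, and compartments of few cells.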
